A study of Mus musculus with 9 samples.

Results

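The 10 genes described here encode secreted growth factors that Mϕs can make. They are *Nrg1*, *Hbegf* and *Areg* of the EGF family, *Igf1* and *Grn*, *Vegfa*, *Pdgfa*, *Pdgfb* and *Pdgfc* of the VEGF and PDGF family, and *Osm* of the IL-6 cytokine family. They were chosen by symbol, and each symbol matched 1 of the 53379 genes in the deposited table. The table holds RNA-seq of mouse bone marrow (BM)-derived Mϕs in 3 conditions with 3 libraries each, numbered #1 to #3. The figure legends give 3 mice, but the titles do not say that equal numbers mark the same mouse. For 3 days, BM cells of wild-type C57BL/6 mice were kept in 10 ng/ml CSF-1 to drive Mϕ differentiation. All groups then stayed in 10 ng/ml CSF-1 for 4 more days, control Mϕs with nothing else, IL-4-treated Mϕs with 10 ng/ml IL-4 and IL-6-treated Mϕs with 100 ng/ml IL-6. These doses and times are those of the sample labels. The methods give 100 ng/ml for both cytokines, and the legends for the same RNA-seq yet another dose and a shorter treatment, so dose and duration are not settled by the sources. The cultures are a model without tumor cells or vessels, and sex and age of the mice are not given in the sources used here.

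Growth factors of the EGF family are made as membrane-bound precursors, which surface proteases such as ADAM17 release, and they bind EGFR or its relatives ERBB3 and ERBB4. PDGF chains pair into dimers that act on PDGFRα and PDGFRβ of mesenchymal cells, VEGF-A acts on VEGFR1 (*Flt1*) and VEGFR2 (*Kdr*) of endothelial cells, and IGF-1 acts on IGF1R and is held by IGF-binding proteins. Oncostatin M signals through gp130 (*Il6st*) with OSMR or LIFR, and progranulin is taken up through sortilin and cut into granulins by elastase, from which SLPI protects it. Mϕs are a known source of several of these factors in wound repair and in tumors.

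Values are FPKM, the fragments per kilobase of exon, scaled to the number of fragments in the library, so they can be compared between genes. Since FPKM were whole multiples of what 1 fragment is worth, fragments could be read back, and the libraries held 29988160 to 39909571 of them. The test was limma on log2(FPKM + 0.1), a scale that understates the change of low genes, for the 12824 genes whose mean reached 0.5 FPKM. Passing took both a Benjamini-Hochberg adjusted p under 0.05 and a change of 1 or more on the log2 scale in either direction, and "rose" and "fell" are used for such genes alone. With 3 libraries a group, an exact two-sided permutation test of a single gene cannot give a p below 0.1. The treatments were checked on *Socs3*, a target of IL-6 signaling, at 1.61 to 2.91 FPKM in control, 1.76 to 3.23 in IL-4- and 74.7 to 85.5 in IL-6-treated Mϕs, and on *Arg1*, a target of IL-4 signaling, at most 0.718, at least 730 and at most 5.33. All 10 Mϕ markers were present in every group, but their sum was lower with IL-4. It was 6159 to 7202 FPKM there, 16797 to 19103 in control and 20533 to 21622 with IL-6. *Lyz2* made up most of each sum, at 4479 to 5734, 13786 to 16064 and 17852 to 18963 in the same order. *Cd68* was lower than control with both cytokines, at 785 to 957, 1311 to 1642 and 934 to 968. *Csf1r*, the CSF-1 receptor gene, stood at 168 to 361, 570 to 751 and 573 to 658. The dendritic cell markers summed to 231 to 403 FPKM with IL-4, 24.6 to 31.0 in control and 10.9 to 14.9 with IL-6. Of this, *Itgax* alone, a gene that Mϕs also use, made up 228 to 399 with IL-4. Relative to control, *Flt3*, *Siglech* and *Cd209a* were lower with IL-4, and *Clec9a* and *Ccr7* overlapped. *Zbtb46* was higher with IL-4, at 0.297 to 0.465 against 0.0737 to 0.0901 FPKM, and so was *Xcr1*, at 0.0450 to 0.0526 against 0.00749 to 0.0320. The part of these shifts in the IL-4 values below was not tested. Control #1 to #3 and IL-4 #1 carried fragments of 12 of 14 Paneth and goblet cell genes above a floor of 3 fragments, against 1 or 2 of 14 in the other 5 libraries. This division puts all control libraries on one side and all IL-6 libraries on the other, so it cannot be told apart from IL-6 treatment. As a term in the fit it is set by IL-4 #1 against IL-4 #2 and #3 alone. A call of IL-6 against control that holds or is lost with this term therefore does not separate the 2. IL-4 #3 stood apart in another way, with long genes low: the median log2 difference from the other libraries of its group, in the longest genes minus that in the shortest (upper and lower quartile of exon length), was −1.33, against −0.52 to 0.72 in the other 8 libraries.

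In control Mϕs the 10 genes spanned from 868 FPKM to 0. *Grn*, at 868 ± 94.5 FPKM (SD, n = 3), was far above *Igf1* at 57.1 ± 7.64, *Vegfa* at 24.5 ± 3.10, *Pdgfb* at 14.7 ± 0.752 and *Osm* at 7.44 ± 0.0667. *Pdgfa* and *Pdgfc* followed at 3.73 ± 0.530 and 3.57 ± 0.296, and were the one pair of neighbors whose libraries overlapped. *Hbegf* had 0.790 ± 0.214, *Nrg1* 0.0373 ± 0.00717, and *Areg* was at 0. With IL-4 the order of the first 4 stayed, but *Pdgfb* and *Pdgfa* overlapped, and *Hbegf* stood above *Osm* and *Pdgfc*. In IL-6-treated Mϕs *Vegfa* and *Igf1* overlapped, and *Nrg1*, the ninth in control Mϕs, overlapped *Pdgfb* and *Osm*. The panels of FPKM by library show each gene on its own axis.

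**Figure D1:**
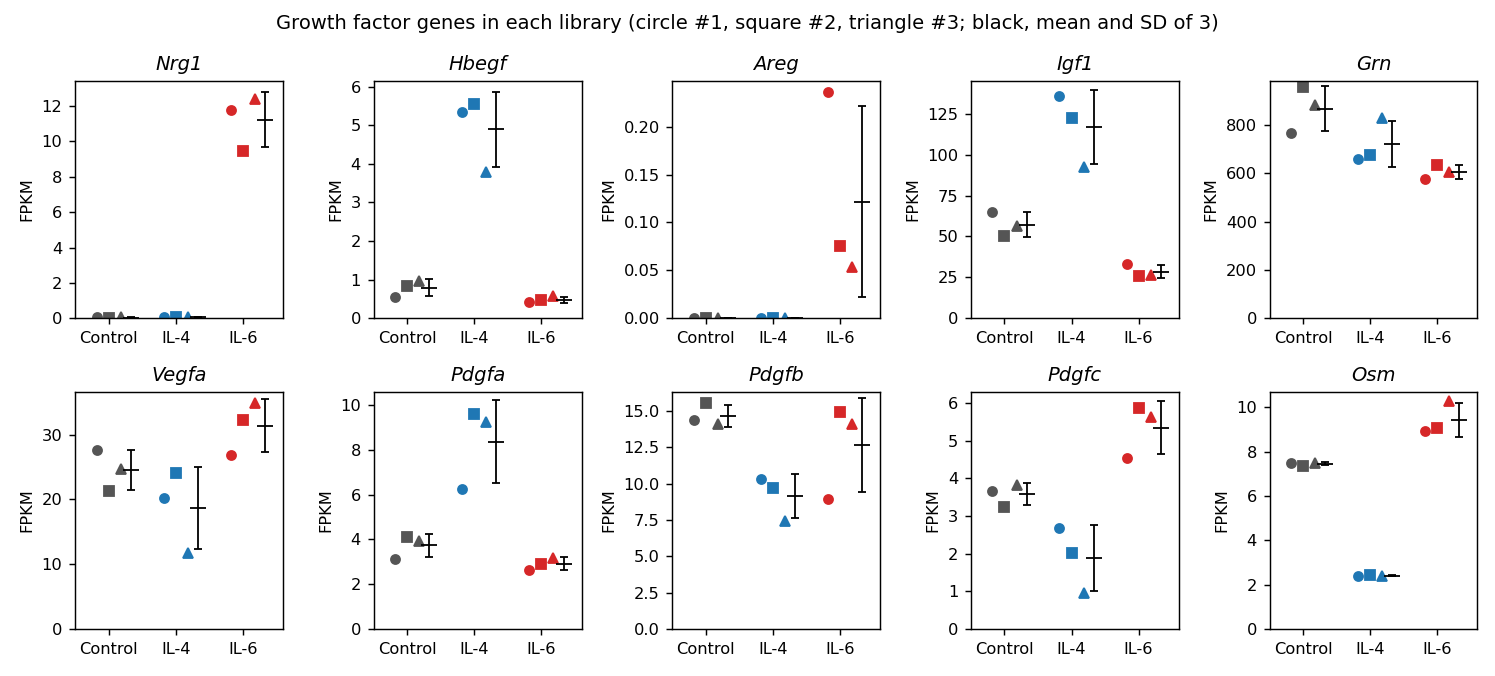
FPKM (y axis, from 0, a scale of its own for each gene) of the 10 growth factor genes by treatment group (x axis). Circles, squares and triangles are libraries #1, #2 and #3, and black bars are the mean ± SD of 3. *Nrg1* lies between 9.46 and 12.4 FPKM in the IL-6 libraries and under 0.1 in the other 6, *Hbegf* between 3.78 and 5.56 in the IL-4 libraries and under 1 elsewhere.

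Of the 10 genes 9 passed the filter on low values, *Nrg1* through its IL-6 libraries alone, and *Areg* did not. IL-4 changed 4 of the 9 relative to control, with *Hbegf*, *Pdgfa* and *Igf1* higher and *Osm* lower. Of all 12824 genes tested, 13.9% passed, 5.02% higher and 8.89% lower. IL-6 changed 2 of 9 relative to control, with *Nrg1* higher and *Igf1* lower, where 5.38% of all genes passed, 3.49% higher and 1.89% lower. Between the cytokines 6 of 9 differed, *Nrg1*, *Osm* and *Pdgfc* being higher and *Hbegf*, *Igf1* and *Pdgfa* lower with IL-6, where 20.4% of all genes passed, 13.6% higher and 6.82% lower. *Vegfa*, *Pdgfb* and *Grn* passed in no comparison. The median log2 fold change of the 10 genes was −0.13 for IL-4 and 0.04 for IL-6 against control, where all tested genes had −0.20 and −0.00, and 0.62 between IL-6 and IL-4, where all had 0.22. These medians were the same with *Areg* at its lower bound. The libraries did not overlap for 7 of the 9 genes between IL-4 and control, 5 between IL-6 and control and 8 between IL-6 and IL-4, where 40.3%, 43.2% and 56.9% of all tested genes did not overlap. The plot of fold changes gives the intervals.

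**Figure D2:**
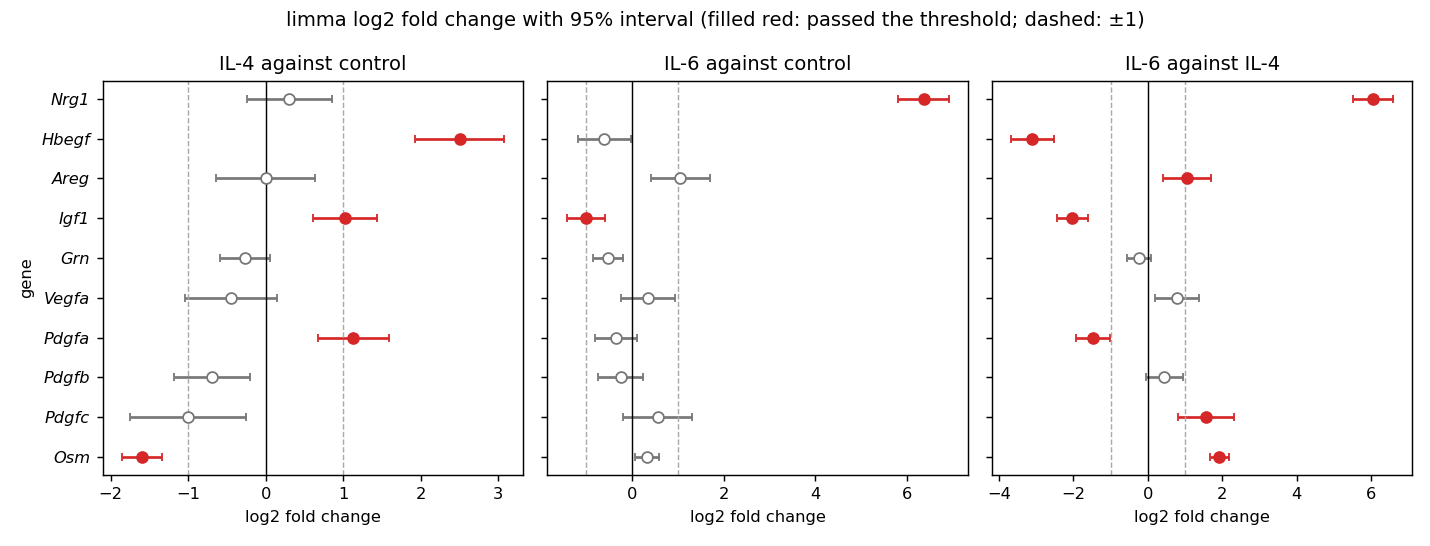
Log2 fold change of FPKM + 0.1 (x axis) of each gene (y axis) with its limma 95% interval, for IL-4 against control, IL-6 against control and IL-6 against IL-4. Red filled points passed the threshold and dashed lines mark a change of 1. *Nrg1* lies at 6.36 and 6.05 in the 2 comparisons with IL-6, and *Hbegf* at 2.50 and −3.10 in the 2 with IL-4.

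*Nrg1* encodes neuregulin 1, a ligand of ERBB3 and ERBB4 best known from Schwann cells and heart, and spans chr8:31814551-32884029 on the minus strand of GRCm38. Control #1 to #3 held 15, 9 and 15 of its fragments, which is 0.0415, 0.0290 and 0.0413 FPKM. In IL-4-treated Mϕs it had 29, 27 and 18 fragments (0.0820, 0.0861 and 0.0436 FPKM), and in IL-6-treated Mϕs 4254, 3199 and 3951 (11.8, 9.46 and 12.4 FPKM). All 3 IL-6 libraries thus lay far above the other 6, and the ratio of mean FPKM was 301 to control and 159 to IL-4. For IL-6 against control the log2 fold change came to 6.36 (limma adjusted p = 6.65e-06, standard error 0.240). With the division of libraries as a term in the fit it was 6.51 (adjusted p = 0.00245), where the IL-4 libraries alone set that term. Within the 5 libraries with few Paneth and goblet cell fragments, IL-6 stood 173 times over IL-4 #2 and #3. IL-4 against control gave 0.30 (adjusted p = 0.393, 95% interval −0.24 to 0.85). RNA came from whole cultures, so fewer cells that express a gene and less RNA per cell cannot be told apart, here or for any gene below.

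Megakaryocyte markers moved in the same libraries: all 8 were present in each group, and their summed level was 329 to 502 FPKM in control Mϕs, 154 to 235 under IL-4 and 1253 to 2521 under IL-6. *Pf4* was the most abundant of those shown, at 268 to 410, 107 to 206 and 999.9 to 2042. The 10 neutrophil markers summed to 4963 to 8763, 2221 to 4146 and 8107 to 11259 FPKM. The part of either cell type in the growth factor values was not tested. The ratio of *Nrg1* to *Hbegf* within a library, which needs no scaling between libraries, was 0.0344 to 0.0748 in control, 0.0115 to 0.0155 in IL-4- and 20.4 to 28.7 in IL-6-treated Mϕs.

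*Hbegf*, on chr18:36504927-36515805 (minus strand), encodes heparin-binding EGF-like growth factor, which binds EGFR and ERBB4. Its FPKM were 0.555, 0.843 and 0.973 in control Mϕs, 5.35, 5.56 and 3.78 under IL-4 and 0.411, 0.465 and 0.563 under IL-6, with at least 34 fragments in every library. The IL-4 libraries were the high ones and overlapped neither other group, while the control and IL-6 libraries overlapped at 0.555 and 0.563. *Hbegf* rose 6.20-fold with IL-4 relative to control (log2 fold change 2.50, standard error 0.25, limma adjusted p = 0.000236), and 6.77-fold when IL-4 #1 alone was set against control. It was 10.2-fold higher with IL-4 than with IL-6 (log2 fold change of IL-6 against IL-4 −3.10, adjusted p = 4.90e-05). The change from control with IL-6 was −0.60 (adjusted p = 0.217). The 10 mast cell and basophil markers summed to 51.8 to 84.7 FPKM with IL-4, against 14.3 to 31.0 in control and 7.10 to 25.3 in IL-6-treated Mϕs, and 6 of them had a mean of at least 0.5 FPKM with IL-4 and 7 in each other group. The basophil protease gene *Mcpt8* was at 13.4 to 24.4 FPKM with IL-4 against 1.69 to 5.03 in control, *Cpa3*, the mast cell carboxypeptidase gene, at 6.85 to 14.2 against 2.44 to 4.43, and *Fcer1a*, the IgE receptor gene of both cell types, at 4.36 to 6.08 against 0.517 to 1.29. *Cma1* was at 0.303 to 0.667 with IL-4 and at 0 in the other libraries, and *Tpsb2* and *Mcpt4* were at 0 in all 9. *Gata2*, *Prss34*, *Ms4a2* and *Kit*, the rest of the list, are in the sums but not given singly. By the counts of 6 and 7 above, a gene among them was lower with IL-4 than in control. The part of mast cells and basophils in the *Hbegf* values was not tested.

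*Areg* (chr5:91139599-91148432, plus strand) encodes amphiregulin, an EGFR ligand associated with tissue repair. It had 0 fragments in each control and IL-4 library and 10, 3 and 2 fragments in IL-6 #1, #2 and #3, which is 0.236, 0.0756 and 0.0536 FPKM. IL-6-treated Mϕs were therefore the one group with any *Areg* fragment, 15 in all, and IL-6 #1 held most of them. Against a floor of 3 fragments over a group, IL-6 was at least 5.09-fold higher than control and at least 5.31-fold higher than IL-4, limits that drop to 2.63 and 2.75 without IL-6 #1. As it lay below the filter, it was taken from the fit of all genes above 0 in any library, in which it passed between IL-6 and IL-4 (adjusted p = 0.0392) and not between IL-6 and control (adjusted p = 0.0983). The first call was lost with the library number as a replicate block (adjusted p = 0.0576) and in 13 of its 17 alternatives in all, so at this depth the difference was barely detectable. The fitted log2 fold change of 1.06 in both cases depends on the pseudocount.

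The 250 bases before the annotated start are printed for *Areg*, the gene with fragments in a single group, and for *Pdgfc*, which differed between the 2 cytokines. They are from RefSeq on GRCm38.p6 and lie on the plus strand, at chr5:91139349-91139598 and chr3:81036166-81036415. Entries were found for 6 of the 10 genes: *Vegfa*, *Igf1*, *Pdgfa*, *Pdgfc*, *Areg* and *Grn*. Capitals mark a match to any of 4 motifs searched on both strands: TTCNNNGAA, the form bound by most STAT factors including STAT3, the same TTC and GAA with 4 bases N between them, the form preferred by STAT6, ACGTG, the core of the hypoxia response element, and TGACGTCA, the cAMP response element.

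Areg: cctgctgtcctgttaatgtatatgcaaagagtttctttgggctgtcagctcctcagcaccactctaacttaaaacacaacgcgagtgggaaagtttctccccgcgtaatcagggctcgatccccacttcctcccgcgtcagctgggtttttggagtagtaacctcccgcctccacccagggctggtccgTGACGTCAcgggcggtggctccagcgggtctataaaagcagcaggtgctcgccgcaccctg

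Pdgfc: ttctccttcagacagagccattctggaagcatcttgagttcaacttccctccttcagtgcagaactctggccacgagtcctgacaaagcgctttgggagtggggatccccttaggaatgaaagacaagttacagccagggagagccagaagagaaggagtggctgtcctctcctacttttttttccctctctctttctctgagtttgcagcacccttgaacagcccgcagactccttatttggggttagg

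The *Areg* window held TGACGTCA, which starts 61 bases before the start, and the *Pdgfc* window none of the 4. Of 32851 windows of this length, 1.55% held TGACGTCA, 7.02% TTCNNNGAA, 5.85% the form with 4 bases N and 16.6% ACGTG. Such matches describe letters and not binding.

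*Igf1*, on chr10:87858265-87937042 (plus strand), encodes insulin-like growth factor 1, a survival and growth signal that Mϕs make in repair. It was the only growth factor gene here that passed against control with both cytokines, and the directions were opposite. The control libraries had 65.2, 50.03 and 56.1 FPKM, the IL-4 libraries 136.0, 122.3 and 92.2, and the IL-6 libraries 32.9, 25.7 and 26.5. No 2 groups overlapped, and IL-4 #3 was the lowest of its group. *Igf1* rose 2.05-fold with IL-4 (log2 fold change 1.02, standard error 0.182, limma adjusted p = 0.00477) and fell to 0.497 of control with IL-6 (−1.01, standard error 0.182, adjusted p = 0.0125). Both lie close to the size threshold of 1. The first value was 0.93 without Control #2, 0.90 without IL-4 #1 and 0.98 without IL-4 #2, each under 1, and 1.18 without IL-4 #3. The second did not pass without Control #1 (−0.91), Control #3 (adjusted p = 0.0571), IL-6 #2 (0.0660) or IL-6 #3 (0.0636), nor with the division of libraries as a term (−0.65, adjusted p = 0.279). Between the cytokines the difference was −2.03 (adjusted p = 9.58e-05), a 4.12-fold higher level with IL-4, and 3.78-fold within IL-4 #2 and #3 and the IL-6 libraries. That call held in all 19 alternatives.

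*Grn* (chr11:102430315-102437048, plus strand), which encodes progranulin, a lysosomal and secreted protein, was the most abundant of the 10 genes in every library. It had 768, 955 and 881 FPKM in control Mϕs, 658, 677 and 829 under IL-4 and 577, 635 and 604 under IL-6. The IL-6 libraries lay below all others, yet the ratio to control was 0.697 (log2 fold change −0.52, limma adjusted p = 0.064, 95% interval −0.84 to −0.19). The IL-4 and control libraries overlapped (−0.27, adjusted p = 0.209). Its binding partner prosaposin (*Psap*) had 11118 ± 709 FPKM in control Mϕs, 10498 ± 317 under IL-4 and 8872 ± 393 under IL-6 (SD, n = 3), and the ratio of *Grn* to *Psap* was 0.0741 to 0.0812 in control, 0.0638 to 0.0771 in IL-4- and 0.0654 to 0.0711 in IL-6-treated Mϕs.

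*Vegfa*, on chr17:46016993-46032369 (minus strand), encodes VEGF-A, the main angiogenic factor of the family. Its levels were 27.6, 21.4 and 24.6 FPKM in control Mϕs, 20.2, 24.1 and 11.7 under IL-4 and 26.9, 32.3 and 34.9 under IL-6. The control libraries overlapped those of either cytokine, and IL-4 #3 was the lowest of all 9. Neither cytokine passed against control, with −0.44 for IL-4 (adjusted p = 0.25, 95% interval −1.04 to 0.15) and 0.35 for IL-6 (adjusted p = 0.510, 95% interval −0.24 to 0.95). IL-6 and IL-4 did not overlap, and their log2 difference of 0.80 had a limma adjusted p of 0.0436 but was under 1 in size. It was 0.50 without IL-4 #3 and 1.01 without IL-4 #2 (adjusted p = 0.0228), which passes. *Vegfb*, a VEGFR1 ligand from the list of other family members, fell with IL-4: 22.1, 31.4 and 28.1 FPKM in control Mϕs, 8.02, 7.98 and 9.77 under IL-4 and 15.3, 17.5 and 16.0 under IL-6 (log2 fold change −1.64 for IL-4, adjusted p = 0.000195). The ratio of *Vegfa* to *Vegfb* was 0.680 to 1.25 in control, 1.20 to 3.02 in IL-4- and 1.76 to 2.18 in IL-6-treated Mϕs.

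Of the 3 PDGF chain genes, *Pdgfa* passed with IL-4 against control and *Pdgfa* and *Pdgfc* between the cytokines, while *Pdgfb* passed in no comparison. *Pdgfa* (chr5:138976014-138997370, minus strand), whose product binds PDGFRα, had 3.12, 4.12 and 3.94 FPKM in control Mϕs, 6.23, 9.61 and 9.24 under IL-4 and 2.62, 2.92 and 3.18 under IL-6. The IL-4 libraries lay above all others, while control and IL-6 met at 3.12 and 3.18. *Pdgfa* rose 2.24-fold with IL-4 (log2 fold change 1.13, standard error 0.20, limma adjusted p = 0.00460), and 1.67-fold in IL-4 #1 alone. With the division of libraries as a term that change was 0.74 (adjusted p = 0.0780), which does not pass. IL-4 exceeded IL-6 by 2.88-fold (IL-6 against IL-4 −1.47, adjusted p = 0.000882).

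*Pdgfb* (chr15:79995874-80014977, minus strand), whose product binds both PDGF receptors, was at 14.4, 15.5 and 14.1 FPKM in control Mϕs, 10.3, 9.70 and 7.40 under IL-4 and 8.94, 14.9 and 14.1 under IL-6. The IL-4 libraries lay below the control libraries, and IL-6 #1 fell among them while IL-6 #2 and #3 sat with control. The log2 difference of IL-4 from control was −0.69 (adjusted p = 0.0475), short of the size threshold, and its adjusted p was 0.0678 without IL-4 #3. The ratio of *Pdgfa* to *Pdgfb* was 0.217 to 0.279 in control and 0.195 to 0.293 in IL-6-treated Mϕs, and 0.605, 0.990 and 1.25 in IL-4 #1, #2 and #3.

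*Pdgfc* (chr3:81036416-81214040, plus strand), a PDGFRα ligand that must be cut to become active, had 3.66, 3.24 and 3.81 FPKM in control Mϕs, 2.68, 2.01 and 0.9503 under IL-4 and 4.54, 5.86 and 5.62 under IL-6. The 3 groups did not overlap, with IL-4 lowest and IL-6 highest, and IL-4 #3 was the lowest library. It did not pass against control with either cytokine, at −1.0 for IL-4 (limma adjusted p = 0.0571) and 0.56 for IL-6 (adjusted p = 0.392). Without IL-4 #1 the change with IL-4 was −1.30 (adjusted p = 0.0173), which passes, and without IL-4 #3 it was −0.60 (adjusted p = 0.0230). IL-6 exceeded IL-4 by 2.84-fold (log2 fold change 1.56, standard error 0.326, adjusted p = 0.00753), and by 1.16 on the log2 scale without IL-4 #3. The ratio of *Pdgfc* to *Pdgfa* was 0.788 to 1.17 in control, 0.103 to 0.430 with IL-4 and 1.73 to 2.01 with IL-6, so that *Pdgfc* was the larger of the 2 in each IL-6 library and the smaller in each IL-4 library.

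**Figure D3:**
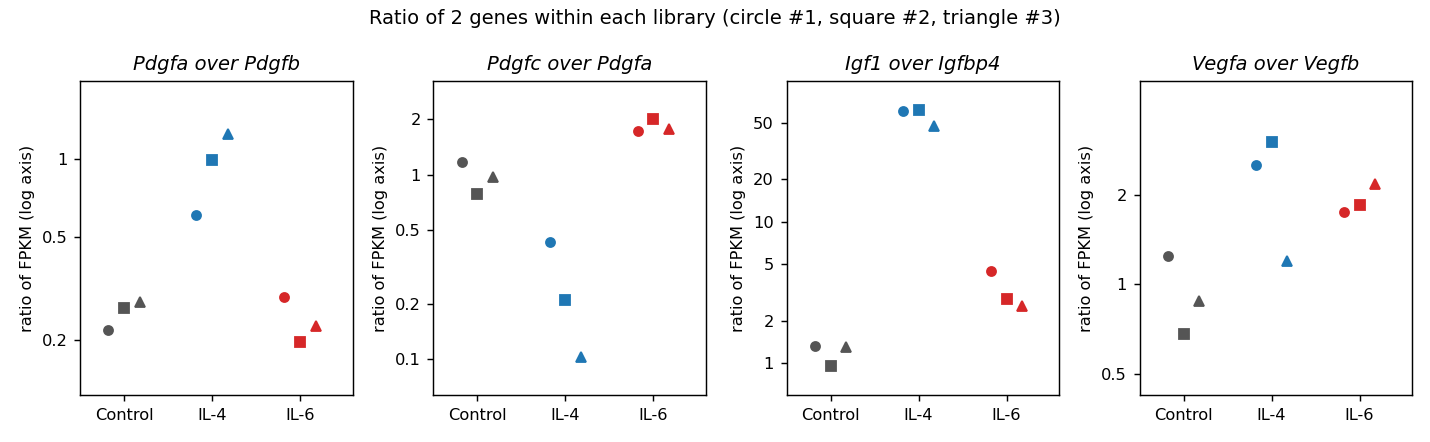
Ratio of the FPKM of 2 genes within a library (y axis, log scale) by treatment group (x axis), with circles, squares and triangles for libraries #1, #2 and #3. *Pdgfa* over *Pdgfb* is 0.605 to 1.25 with IL-4 and below 0.3 in the other 6 libraries, and *Igf1* over its binding protein gene *Igfbp4* is 47.9 to 62.0 with IL-4, 0.954 to 1.32 in control and 2.53 to 4.46 with IL-6.

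*Osm*, on chr11:4236420-4241026 (plus strand), encodes oncostatin M, a relative of IL-6, and its control and IL-4 libraries hardly differed among themselves. It was at 7.48, 7.37 and 7.49 FPKM in control Mϕs, 2.38, 2.41 and 2.404 under IL-4 and 8.92, 9.04 and 10.3 under IL-6. No groups overlapped, and IL-4 #3 matched the other IL-4 libraries here. *Osm* fell to 0.322 of control with IL-4 (log2 fold change −1.59, standard error 0.114, limma adjusted p = 3.89e-05), to 0.32 in IL-4 #1 alone and by 1.6 on the log2 scale with the division of libraries as a term (adjusted p = 0.00137). The IL-6 libraries were 1.27 times control (log2 fold change 0.33, adjusted p = 0.128), and IL-6 exceeded IL-4 by 3.93-fold (1.93, adjusted p = 9.23e-06).

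Of 24 receptor genes listed, 15 passed the filter on low values. *Erbb4* was at 0 in all 9 libraries, and *Egfr*, *Pdgfra*, *Pdgfrb* and *Osmr* reached at most 0.111, 0.0329, 0.202 and 0.00947 FPKM. *Erbb3*, a neuregulin receptor, was at 0.649 to 1.04 FPKM in control, 0.321 to 0.773 in IL-4- and 0.820 to 0.829 in IL-6-treated Mϕs, and its partner *Erbb2* reached at most 0.562. *Erbb2* lay below the filter, and in the fit of all genes it was lower with IL-6 than with IL-4 (−1.46, adjusted p = 0.0281), a call lost in 10 of its 17 alternatives. Sortilin (*Sort1*), neuropilin 1 (*Nrp1*) and neuropilin 2 (*Nrp2*), the last 2 being co-receptors of VEGF, were above 10 FPKM in every library and passed in no comparison.

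IL-4 against control raised 3 of the 15 receptor genes and lowered 2, where 5.02% and 8.89% of all genes passed. *Flt1*, the VEGFR1 gene, was at 0.0255, 0.0148 and 0.0401 FPKM in control Mϕs, 5.36, 3.73 and 0.959 under IL-4 and 0.238, 0.268 and 0.178 under IL-6. All IL-4 libraries were the high ones though they differed among themselves, IL-4 #3 being the lowest (log2 fold change 4.47, standard error 0.564, adjusted p = 0.000826, and 5.18 without IL-4 #3). Like *Nrg1*, it passed the filter through 1 group alone, here IL-4. *Kdr*, the VEGFR2 gene, lay below the filter, at 0.3204, 0.240 and 0.275 FPKM in control Mϕs, 0.0778, 0.128 and 0.0583 under IL-4 and 0.530, 0.597 and 0.562 under IL-6. No groups overlapped, in the opposite order to *Flt1* between IL-4 and control. In the fit of all genes *Kdr* fell by 1.02 with IL-4 (adjusted p = 0.0266, lost in 12 of 17 alternatives), and IL-6 exceeded IL-4 by 1.83 (adjusted p = 0.00122, lost in 1 of 17). The other 2 that rose were *Il6st* (gp130, 1.63, adjusted p = 0.0289), whose call was lost in 9 of its 19 alternatives, and *Plxdc2* (1.09, adjusted p = 0.00799, lost in 3 of 18). *Igf1r* fell by 1.35 (adjusted p = 0.0169, lost in 5 of 18 alternatives, among them the division of libraries as a term at 0.237). *Tnfrsf1b*, a TNF receptor that progranulin is reported to bind, fell by 1.02 (adjusted p = 0.0128). That call was lost in 5 of its 19 alternatives, among them the same term at 0.205. The median over the 15 genes was −0.24, against −0.20 for all genes.

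Of the same receptors, IL-6 against control lowered 1 of 15, *Cd9*, a tetraspanin that associates with the HB-EGF precursor, and raised none by limma (3.49% of all genes rose and 1.89% fell). At an unadjusted p under 0.05, 4 were higher and 1 lower, and limma voom on fragments passed 0 higher and 1 lower. *Cd9* had 117, 141 and 148 FPKM in control Mϕs, 267, 274 and 184 under IL-4 and 44.7, 54.4 and 53.3 under IL-6, so no groups overlapped. It fell by 1.41 on the log2 scale with IL-6 (adjusted p = 0.00300, lost with the division of libraries as a term at 0.152). Between IL-6 and IL-4, 3 receptor genes were higher and 4 lower with IL-6, where 13.6% and 6.82% of all genes were. *Igf1r* (log2 fold change of IL-6 against IL-4 2.08, adjusted p = 0.00168), *Lifr* (1.87, adjusted p = 0.00666, lost in 1 of 18 alternatives) and *Tnfrsf1b* (1.04, adjusted p = 0.00891, lost in 2 of 19) were higher. *Flt1* (−3.11, adjusted p = 0.00395), *Cd9* (−2.23, adjusted p = 5.83e-05), *Plxdc2* (−1.59, adjusted p = 0.000914) and *Il6st* (−1.35, adjusted p = 0.0461) were lower. The *Il6st* call was lost in 11 of its 19 alternatives. The medians over the 15 genes were 0.28 and 0.44, against −0.00 and 0.22 for all genes.

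Of 28 genes for shedding, processing and binding proteins, 15 passed the filter. IL-4 raised 2 and lowered 4 relative to control, IL-6 raised 2 and lowered 2, and IL-6 exceeded IL-4 in 5 and was below it in 2, where 13.9%, 5.38% and 20.4% of all genes passed in the 3 comparisons. *Igfbp5*, below the filter, was higher with IL-4 than in control in the fit of all genes (1.34, adjusted p = 0.0160, lost in 5 of 17 alternatives). It was at 0 to 0.0334 FPKM in control, 0.132 to 0.291 with IL-4 and 0.105 to 0.163 with IL-6. The medians over the 15 were 0.03, 0.33 and 0.39, against −0.20, −0.00 and 0.22 for all genes. *Igfbp4*, whose product binds IGF-1, had 49.3, 52.4 and 42.9 FPKM in control Mϕs, 2.25, 1.97 and 1.92 under IL-4 and 7.39, 9.08 and 10.5 under IL-6. On the log2 scale it fell by 4.49 with IL-4 (adjusted p = 1.95e-06) and fell by 2.42 with IL-6 (adjusted p = 9.93e-05), and no groups overlapped. The ratio of *Igf1* to *Igfbp4* was 0.954 to 1.32 in control, 47.9 to 62.0 in IL-4- and 2.53 to 4.46 in IL-6-treated Mϕs. *Igfbp6* was higher with both cytokines, at 0.0258 to 0.205, 0.210 to 1.85 and 2.53 to 4.33 FPKM, though the call for IL-4 against control was lost in 15 of its 18 alternatives.

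*Adam17*, which encodes the main sheddase of the EGF family, had 42.2, 30.6 and 34.6 FPKM in control Mϕs, 22.9, 19.8 and 10.5 under IL-4 and 59.3, 52.0 and 48.5 under IL-6. The groups did not overlap, and IL-4 #3 was the lowest library. It fell by 1.07 with IL-4 (adjusted p = 0.0247), a call that 8 of its 18 alternatives lost, among them the one without IL-4 #3 (−0.73), and IL-6 exceeded IL-4 by 1.65 (adjusted p = 0.00272). *Adam8*, another surface protease, went the other way, with 112, 112 and 136 FPKM in control, 377, 418 and 271 under IL-4 and 140, 140 and 144 under IL-6 (log2 fold change with IL-4 1.55, adjusted p = 0.000426). *Adam10* and *Furin* passed in no comparison.

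For progranulin, *Slpi*, the inhibitor that shields it from elastase, had 14.3, 25.7 and 19.3 FPKM in control Mϕs, 6.37, 7.52 and 14.0 under IL-4 and 67.7, 69.2 and 68.7 under IL-6. The IL-6 libraries were the high ones and close to each other (log2 fold change against control 1.83, adjusted p = 0.00903, lost with the division of libraries as a term at 0.267). *Slpi* fell with IL-4 relative to control, a call lost in 10 of its 19 alternatives. The elastase gene *Elane*, a neutrophil granule gene, was at 35.4 to 93.3 FPKM in control, 8.05 to 12.2 with IL-4 and 36.8 to 67.2 with IL-6, the order in which the neutrophil markers above also stood for IL-4. Its fall with IL-4 relative to control held in all 19 alternatives. *Plau*, which encodes the protease uPA, fell with IL-6 by 1.94 relative to control (adjusted p = 0.0157). This call was lost in 6 of its 19 alternatives, among them the division of libraries as a term (adjusted p = 0.308).

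**Figure D4:**
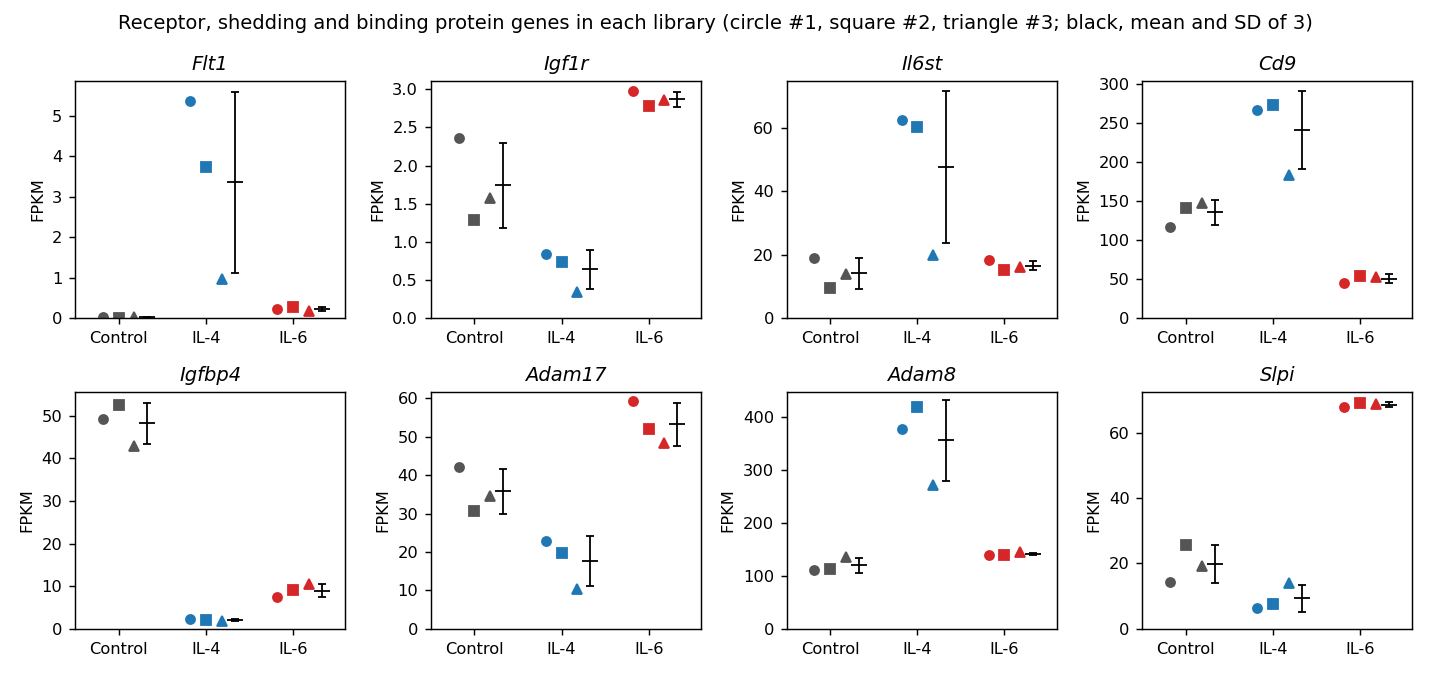
FPKM (y axis, from 0, a scale of its own for each gene) of 4 receptor genes (*Flt1*, *Igf1r*, *Il6st*, *Cd9*) and 4 genes for binding and processing proteins (*Igfbp4*, *Adam17*, *Adam8*, *Slpi*) by treatment group (x axis). Circles, squares and triangles are libraries #1, #2 and #3, and black bars are the mean ± SD of 3. The triangle of IL-4 lies below the other IL-4 libraries for *Flt1*, *Igf1r*, *Il6st*, *Cd9*, *Adam17* and *Adam8*.

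For each growth factor gene that passed in a comparison and the filter, the 2 tested genes with the most similar pattern were found by the root mean square difference of log2(FPKM + 0.1) over the 9 libraries, each gene centered on its mean. For *Nrg1* these were *2010005H15Rik* (0.42) and *Socs3* (0.61), where the median over all 12815 genes compared was 2.91. *Hbegf* was nearest to *Myc* (0.17) and *Ncs1* (0.19), and *Igf1* to *Cav2* (0.14) and *Stra6l* (0.18). *Pdgfa* was nearest to *Gars* and *Ybx3*, *Pdgfc* to *Trim30a* and *Ddx58*, and *Osm* to *Arhgef10l* and *Glul*, all 6 between 0.11 and 0.13. These distances are a description over libraries that share depth and preparation.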

How the data were processed

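RNA-seq libraries of BM-derived Mϕs were analyzed, 9 in all and 3 for each treatment group. Per gene, the authors deposited FPKM values. The methods and processing notes name STAR 2.4.2a, GRCm38, Cufflinks 2.2.1 and GENCODE M5 for them, and a filter is not given in the sources used here. Of 53379 gene identifiers, 94.8% matched GENCODE M21 with their version, and coordinates are from M21. Of 100881 values of 1 to 100 fragments, 100.0% were whole within 0.05, as counting over exons gives, so the program behind the table is not settled. Fragments of *Hbegf* and *Pdgfb*, whose versions differ from M21, are the fewest that give whole numbers in all libraries. Floors of 3 fragments cover counting error only, while the 95% intervals come from the limma fit and rest on the spread between libraries.

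The fit used limma 3.58.1 in R 4.3.3 (linear model with 3 groups, eBayes with trend and robust options, Benjamini-Hochberg adjustment) on log2(FPKM + 0.1), and all adjusted p-values come from limma. Tables and plots were made in Python 3.11.15 with numpy 2.4.6, pandas 2.3.3, scipy 1.17.1 and matplotlib 3.10.9. Every one of the 10 growth factor genes is named. Of the lists of relatives, receptors and processing proteins, genes that passed are named, at most 10 a list, with receptors and proteases of growth factors that passed. The members and lists were chosen with earlier results of these data known, so they are no independent support, and so was the division of libraries by Paneth and goblet cell genes (7 or more of 14 above the floor). The fit was run on simulated counts with changes in IL-6 alone, which lack the division of libraries and the low long genes of IL-4 #3. That run therefore does not check the fit for either.

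Alternatives were pseudocounts of 1 and 0.01, a filter at a mean of 5 FPKM or none, median-ratio rescaling, quantile normalization, fitting the compared groups alone, a replicate block, the division of libraries as a term, limma voom on recovered fragments, adjusted p alone, and leaving out each library. The pairing of libraries rests on the numbers #1 to #3 in the titles, which do not name a mouse. Deviations from group means of same-numbered libraries correlated over the tested genes with r of 0.521, −0.415 and 0.0777 (#1 to #3, IL-4 against control), 0.408, 0.201 and 0.166 (IL-6 against control) and 0.281, −0.0612 and 0.153 (IL-6 against IL-4). The libraries of a group are taken to be from separate mice, since the legends give 3 mice, and p-values measure the spread between these libraries. Opposite-strand genes overlap *Grn*, *Nrg1*, *Pdgfa* and *Pdgfc*, and whether strand was used in counting is not given in the sources used here. The most abundant of them, *6330403L08Rik* at *Pdgfa*, reached 1.44 FPKM.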

Additional observations from a re-analysis of the deposited data

How the results depend on the processing

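Each result was recomputed with 1 choice changed at a time. The calls of *Nrg1* with IL-6, of *Hbegf* and *Osm* with IL-4, and of these 3, *Igf1*, *Pdgfa* and *Pdgfc* between IL-6 and IL-4 held in every alternative that gave them a value, and limma voom gave none for *Hbegf* and *Pdgfb*. No called value changed sign. Of the growth factor genes passed between IL-4 and control (4), 2 remained testable and passed at a mean FPKM of at least 5. Between IL-6 and control (2), 1 passed with a pseudocount of 1, at a mean FPKM of at least 5 and with the division of libraries as a term, and 1 to 2 on leaving out a library. Between IL-6 and IL-4 (7 with *Areg*), 2 passed at a mean FPKM of at least 5. The filter removes low genes by construction, and the other causes were not tested. A pseudocount of 1 took the IL-4 change of *Pdgfa* to 0.97 and the IL-6 change of *Igf1* to −0.98, and quantile normalization the IL-4 change of *Igf1* to 0.92.

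The replicate block, which uses the library numbers as pairing, ended the *Areg* call between IL-6 and IL-4 (adjusted p = 0.0576) and changed no other call of the 10 genes, with 4, 2 and 6 of them passing in the 3 comparisons. Over all tested genes, 1784 passed between IL-4 and control, 847 at a mean FPKM of at least 5, 1111 with the division as a term and 3186 by adjusted p alone. For IL-6 against control 690 passed, and 306, 187 and 1077 under the same alternatives, with 387 to 1001 on leaving out a library (387 without Control #3, 408 without IL-6 #3, 424 without IL-6 #2, 445 without Control #2). For IL-6 against IL-4 2613 passed, 1219 at a mean FPKM of at least 5 and 4375 by adjusted p alone. Median-ratio rescaling moved the median change of all genes with IL-4 from −0.20 to −0.01 and the split from 644 higher and 1140 lower to 834 and 874, and raised each IL-4 value accordingly (*Grn* from −0.27 to −0.07). Depth limits *Areg* and, outside IL-6, *Nrg1*, with at most 29 fragments a library.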

Other observations

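Of 22 other growth factors of the same families, 5 passed the filter on low values. Where 13.9% of all genes passed, IL-4 raised *Clcf1*, a cytokine that signals through gp130, and lowered *Vegfb* relative to control. *Clcf1* had 0.849, 0.925 and 1.03 FPKM in control Mϕs, 2.99, 3.92 and 1.96 under IL-4 and 1.33, 1.48 and 1.66 under IL-6, and no groups overlapped (IL-4 against control 1.51 on the log2 scale, limma adjusted p = 0.00313). None of the 5 passed by limma between IL-6 and control or IL-6 and IL-4, where passing also took a change of 1 in size. By limma adjusted p alone, *Vegfb* was lower with IL-6 than in control (−0.73, adjusted p = 0.0271). Against IL-4, *Vegfb* was higher with IL-6 (0.92, adjusted p = 0.00277) and *Clcf1* lower (−0.90, adjusted p = 0.0245). At an unadjusted p under 0.05, 2 were higher and 1 lower between IL-6 and control. Between IL-6 and IL-4, 1 was higher and 2 were lower, and limma voom passed 0 of the 4 it could test in both comparisons. *Hdgf* and *Hgf* passed in no comparison. The median log2 fold changes over the 5 were 0.28 for IL-4, −0.06 for IL-6 and −0.07 for IL-6 against IL-4, where all tested genes had −0.20, −0.00 and 0.22. *Nrg3* was at 0 in all 9 libraries, which allows up to 3 fragments in each.

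2 relatives of *Vegfa* lay below the filter yet differed between groups, and were picked after their values were seen. *Pgf*, which encodes placental growth factor, a VEGFR1 ligand, had 0.0296, 0.0230 and 0.0491 FPKM in control Mϕs, 0.141, 0.159 and 0.345 under IL-4 and 0.326, 0.454 and 0.482 under IL-6. Fitted with no filter, *Pgf* changed by 1.18 on the log2 scale under IL-4 (limma adjusted p = 0.0408) and by 1.95 under IL-6 (adjusted p = 0.0118), calls lost in 13 and 5 of 17 alternatives. *Vegfc*, a lymphatic growth factor, had 0.0117, 0.0136 and 0.0349 FPKM in control and 0.0956, 0.162 and 0.276 with IL-4 (1.16, adjusted p = 0.0391, lost in 12 of 17). With IL-6 it had 0.0585, 0.125 and 0.0931 FPKM, above control and overlapping IL-4 (0.67 against control, adjusted p = 0.336). IL-4 #3 was the highest IL-4 library for both, whereas it was the lowest for *Vegfa*.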
